A study of Mus musculus with 2 samples.

Results

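A group of 9 secreted regulators of Wnt signalling were described in nuclei of the mouse colon: the R-spondins Rspo1, Rspo2 and Rspo3, the ligands Wnt2b, Wnt4, Wnt5a and Wnt5b, and the modulators Sfrp1 and Dkk3. They were chosen by symbol, and all 9 of 9 were found, each with at least 1 unique molecular identifier (UMI, a tag that marks 1 captured RNA molecule) in both libraries, among 32285 genes counted. Colon was taken from Pink1 knockout (KO) males and from their wild-type (WT) littermates, all C57BL/6, aged 15 weeks and kept specific pathogen free. The product of Pink1 is a kinase that flags damaged mitochondria so that they are cleared. Sorted colon nuclei of 3 mice were pooled for each genotype and made into 1 library each with a droplet-based 3′ kit, batch label 2 for Pink1 KO and 1 for WT, so genotype, library and batch cannot be told apart. The sources used here do not say which part of Pink1 is deleted, or in which cells.

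Wnt ligands bind Frizzled receptors together with LRP co-receptors and, in the canonical branch, keep β-catenin from being degraded. R-spondins bind LGR receptors and stop the ubiquitin ligases Rnf43 and Znrf3 from clearing Frizzled, which raises the response to a Wnt ligand. In the gut these signals sustain the stem cells at the crypt base, and the mesenchyme under the epithelium is a known source of them.

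The KO library held 10966 nuclei after filtering and removal of predicted doublets, with a median of 1571 UMIs, and the WT library held 8256 nuclei with a median of 1624.5 UMIs; 28 barcodes occurred in both. Classes were called X-like from marker genes, in 30 clusters made without the 9 genes and without other listed Wnt pathway genes. Fibroblast-like nuclei numbered 751 in KO and 395 in WT, and smooth muscle-like nuclei 527 in KO and 293 in WT. All 10 fibroblast markers and all 8 smooth muscle markers were detected in their classes in both libraries. A further 5 clusters of epithelial nuclei carried no name, and cluster 26 held enteric neuron markers beside those of interstitial cells of Cajal. The summed level of 7 enteric neuron markers in cluster 26 was 467 CPM (UMIs scaled to 1000000 nuclear-encoded UMIs of the class) in KO and 2258 CPM in WT, so its make-up differed between the libraries. Pink1 itself had 113 UMIs in KO and 171 in WT, a CPM ratio of 0.537 (95% interval 0.420 to 0.686); whether the counted 3′ end lies in the deleted part is unknown, so these reads check the label only in part. With 1 library per genotype no test was possible: every interval given here covers counting error only, and "past the fold" means at least 1.5-fold apart with at least 20 UMIs over both libraries.

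Promoter sequence is shown for the 2 of these genes whose upstream window held a match to the motif of an immediate early factor. The motifs were searched because the summed level of immediate early transcripts was far higher in the KO library. Any effect of these factors on Wnt2b or Wnt5b was not tested. The windows are the 250 bases before the RefSeq start on GRCm38.p6, written 5′ to 3′ on the gene's strand, with the match in capitals. They are Wnt2b on chromosome 3, chr3:104961710-104961959, minus strand, with GCGNGGGCG (the Egr motif, first base 120 before the start), and Wnt5b on chromosome 6, chr6:119544348-119544597, minus strand, with TGANTCA (the AP-1 motif, first base 191 before the start).
Wnt2b: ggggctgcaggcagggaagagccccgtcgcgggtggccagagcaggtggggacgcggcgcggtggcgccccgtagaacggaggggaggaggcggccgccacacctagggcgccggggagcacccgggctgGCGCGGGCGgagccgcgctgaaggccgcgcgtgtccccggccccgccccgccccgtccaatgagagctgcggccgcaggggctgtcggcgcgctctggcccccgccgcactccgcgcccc
Wnt5b: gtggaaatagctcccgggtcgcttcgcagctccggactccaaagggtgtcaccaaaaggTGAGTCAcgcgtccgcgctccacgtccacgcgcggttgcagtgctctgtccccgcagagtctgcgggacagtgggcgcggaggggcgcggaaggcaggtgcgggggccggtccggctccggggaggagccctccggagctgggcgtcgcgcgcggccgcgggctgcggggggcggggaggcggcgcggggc
On either strand of 300-base windows (250 bases before and 50 after a start), the Egr motif matched 5.55% and the AP-1 motif, which reads the same on both strands, 7.81% of 32851 windows. The Wnt2b and Wnt5b windows were richer in G and C (79.7% and 78.0%) than the median window (52.7%). Also searched were CTTTGAT, a TCF/LEF motif found in 3.73% of windows, and the CArG box of serum response factor, found in 1.63%. Windows were available for 4 of the 9 genes. Those of Rspo1 and Wnt4 held none of these motifs, and of the windows of 2 further Wnt5b starts 1 held the TCF/LEF motif and neither held the Egr or AP-1 motif. A match describes the letters only and says nothing of binding.

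In fibroblast-like nuclei the 22 immediate early genes summed to 9662 CPM in KO and 1270 CPM in WT. All 19 of them with at least 20 UMIs were past the fold and higher in KO, with a median log2 ratio of 3.25. None of the 6 Wnt-related genes measured there was past the fold in the main setting. Wnt5b, at 0.674 (0.289 to 1.60), was past it under 2 of 11 alternatives and Wnt2b under 1. Any link between these genes and the immediate early genes was not tested. Over all 9155 genes measured in these nuclei, 11.4% were past the fold and higher and 10.7% past it and lower.

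Rspo3, a ligand of the Lgr4, Lgr5 and Lgr6 receptors, lay mainly in smooth muscle-like nuclei. The gene lies on chromosome 10, 29452416 to 29535867, minus strand (GRCm38). Smooth muscle-like nuclei held 80 of its 96 UMIs in KO, 83.3%, and 72 of its 87 UMIs in WT, 82.8%. The level was 106 CPM (95% interval 84.0 to 132) in KO and 164 CPM (128 to 206) in WT. The class interval did not overlap that of the next class in either library. That next class was lymphatic endothelium-like, with 5 UMIs (35.1 CPM) in KO and 4 UMIs (37.3 CPM) in WT. Smooth muscle markers stood there at 2.79% in KO and 3.45% in WT of their level in smooth muscle-like nuclei, whereas Rspo3 stood at 33.2% in KO and 22.8% in WT. Fibroblast-like nuclei held 9 UMIs (8.48 CPM) in KO and 6 UMIs (9.79 CPM) in WT. Goblet-like nuclei, taken as a class that should lack these genes, held 0 UMIs of Rspo3 in 1126 KO and 971 WT nuclei, which allows up to 0.266% of nuclei with a UMI in KO and 0.309% in WT and does not bound the share that express it.

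Rspo3 was lower in smooth muscle-like nuclei of KO than of WT, with a CPM ratio of 0.648 (95% interval 0.465 to 0.903). It was detected in 12.1% of these nuclei in KO and 17.1% in WT, at median depths of 1275 and 1226 UMIs per nucleus in KO and WT. Thinned to 500 UMIs per nucleus, the shares were 3.42% in KO and 6.14% in WT. The summed level of the 8 smooth muscle markers was 8810 CPM in KO and 6762 CPM in WT. The ratio lies just past the fold, and 3 other ways of taking it fell short: 0.716 with predicted doublets kept, 0.672 in the larger smooth muscle cluster alone, and 0.694 and 0.779 within the 2 subsets that hold nearly all of the UMIs. In smooth muscle-like nuclei 10.8% of 7328 measured genes were past the fold and lower and 13.9% past it and higher.

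Within smooth muscle, Rspo3 varied by subset. Subset 0, led by Adora1, Fap, Shisa3 and Lepr, had 54 UMIs (175 CPM, interval 132 to 229) in KO and 55 UMIs (253 CPM, 190 to 329) in WT. Subset 1, led by Rgs1, Cacna1e and Bcl11a, had 25 UMIs (79.6 CPM, 51.5 to 117) in KO and 16 UMIs (102 CPM, 58.4 to 166) in WT. Subset 2, led by Nrg1, Sncaip and Lrrc7, had 1 UMI in each library. It comprised 140 of the 527 nuclei in KO and 62 of the 293 in WT. The level was thus highest in subset 0 in both libraries, without overlap of the intervals of subsets 0 and 1. All 6 KO UMIs of Rspo2 in smooth muscle were also in subset 0.

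Rspo1 and Rspo2 were near the detection limit. Rspo1 had 2 UMIs in all KO nuclei and 1 in all WT nuclei, and Rspo2 had 7 in KO and 4 in WT. For Rspo2, 6 of the 7 KO UMIs lay in smooth muscle-like nuclei (7.94 CPM, interval 2.91 to 17.3), where WT had 0 (interval up to 8.38 CPM), so the intervals overlap. Of the 4 WT UMIs of Rspo2, 3 lay in cluster 26, where KO had 0. Neither gene could be compared between genotypes at this depth.

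**Figure D1:**
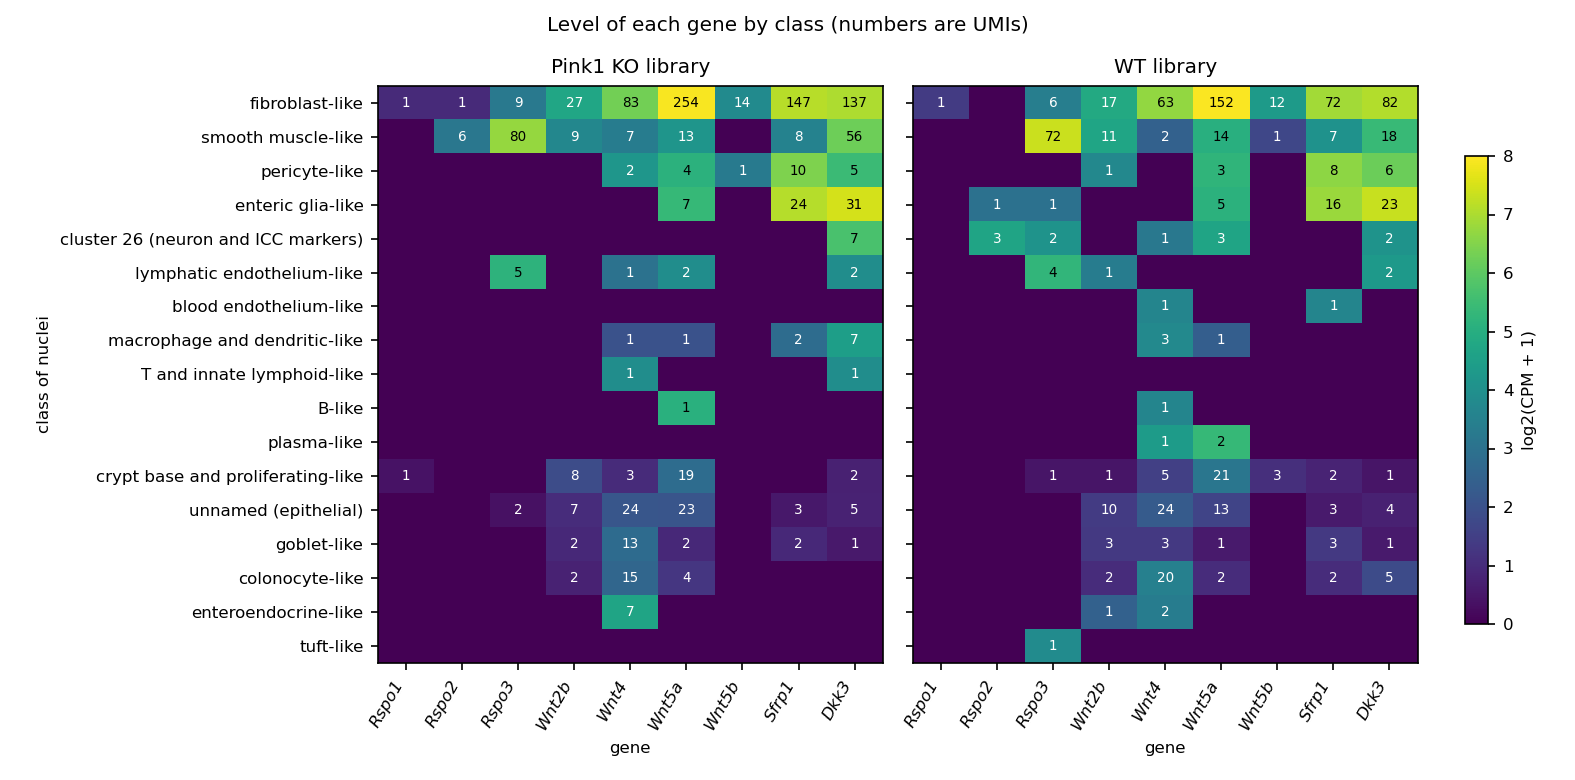
Level of each of the 9 genes (columns) in each class of nuclei (rows) in the Pink1 KO library on the left and the WT library on the right, as log2(CPM + 1) on the colour scale, with UMI counts printed in the cells. Rspo3 stands in smooth muscle-like nuclei with 80 UMIs in KO and 72 in WT, and Wnt5a in fibroblast-like nuclei with 254 in KO and 152 in WT.

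Wnt5a, a ligand known mainly for β-catenin-independent signalling and for a part in crypt regeneration, had the most UMIs of the 9 genes. It lies on chromosome 14, 28504750 to 28527448, plus strand. Fibroblast-like nuclei held 254 of 330 UMIs in KO, 77%, and 152 of 217 in WT, 70.0%. The level there was 239 CPM (interval 211 to 271) in KO and 248 CPM (210 to 291) in WT, and its interval did not overlap that of the next class, enteric glia-like, in either library (39.8 CPM in KO and 34.7 CPM in WT). The KO over WT ratio in fibroblast-like nuclei was 0.965 (0.787 to 1.19), so a difference of 1.5-fold either way lies outside the counting interval.

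One fibroblast subset carried most of this Wnt5a. Subset 1 was led by Fst, Ednrb, Sox6, Fgf9 and F3, and 7 of 8 markers of subepithelial fibroblasts were at least 2-fold higher there than in the other fibroblast-like nuclei. It comprised 231 nuclei in KO and 127 in WT. Wnt5a had 225 UMIs (642 CPM, interval 561 to 731) in KO and 134 UMIs (650 CPM, 544 to 770) in WT in this subset, a ratio of 0.987 (0.794 to 1.23). The gene was detected in 42.0% of the subset's nuclei in KO and 47.2% in WT, with up to 10 UMIs in a KO nucleus and 11 in a WT nucleus. Subset 0 had 38.5 CPM in KO and 42.1 CPM in WT, and subset 2 had 52.0 CPM in KO and 63.8 CPM in WT. Neither Wnt5a nor the other listed Wnt genes took part in making the subsets.

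Among the epithelial clusters, clusters 6 and 1 had the most UMIs of Wnt5a. Cluster 6, led by Lgr5, Ntrk2, Cd44 and Hoxb8, had 11 UMIs (12.8 CPM) in KO and 13 UMIs (19.6 CPM) in WT. Cluster 1, led by Apol10a, Dmbt1 and Hsd3b3, had 17 UMIs (10.2 CPM) in KO and 11 UMIs (8.92 CPM) in WT. These are 5.34% in KO and 7.89% in WT, and 4.27% in KO and 3.60% in WT, of the fibroblast level. The 10 fibroblast markers stood at 0.359% in KO and 0.226% in WT of their fibroblast level in cluster 6, and at 0.409% in KO and 0.220% in WT in cluster 1. Among the others, crypt base cluster 9 had 3 UMIs (3.03 CPM) in KO and 6 UMIs (7.80 CPM) in WT, and cluster 13 had 3 UMIs (7.47 CPM) in KO and 1 UMI (2.33 CPM) in WT. Goblet-like nuclei had 2 UMIs of Wnt5a (0.906 CPM) in KO and 1 UMI (0.504 CPM) in WT. Over all crypt base and proliferating-like nuclei the KO over WT ratio of Wnt5a was 0.786 (0.400 to 1.54), within the fold. Of the genes measured there at full depth, 5.6% were past the fold and higher and 7.27% lower. After thinning to 500 UMIs per nucleus the ratio was 2.43. Thinning leaves 9 UMIs in KO and 3 in WT, short of the 20 UMIs needed for a call. In the unnamed epithelial clusters the ratio of Wnt5a was 1.55 (0.752 to 3.33) from 23 UMIs in KO and 13 in WT, with an interval that spans 1. That ratio was past the fold under 6 of 11 alternatives (background 5.51% higher and 8.53% lower). Cluster 1, with 17 of these UMIs in KO and 11 in WT, had a ratio of 1.145 (0.506 to 2.70), within the fold.

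**Figure D2:**
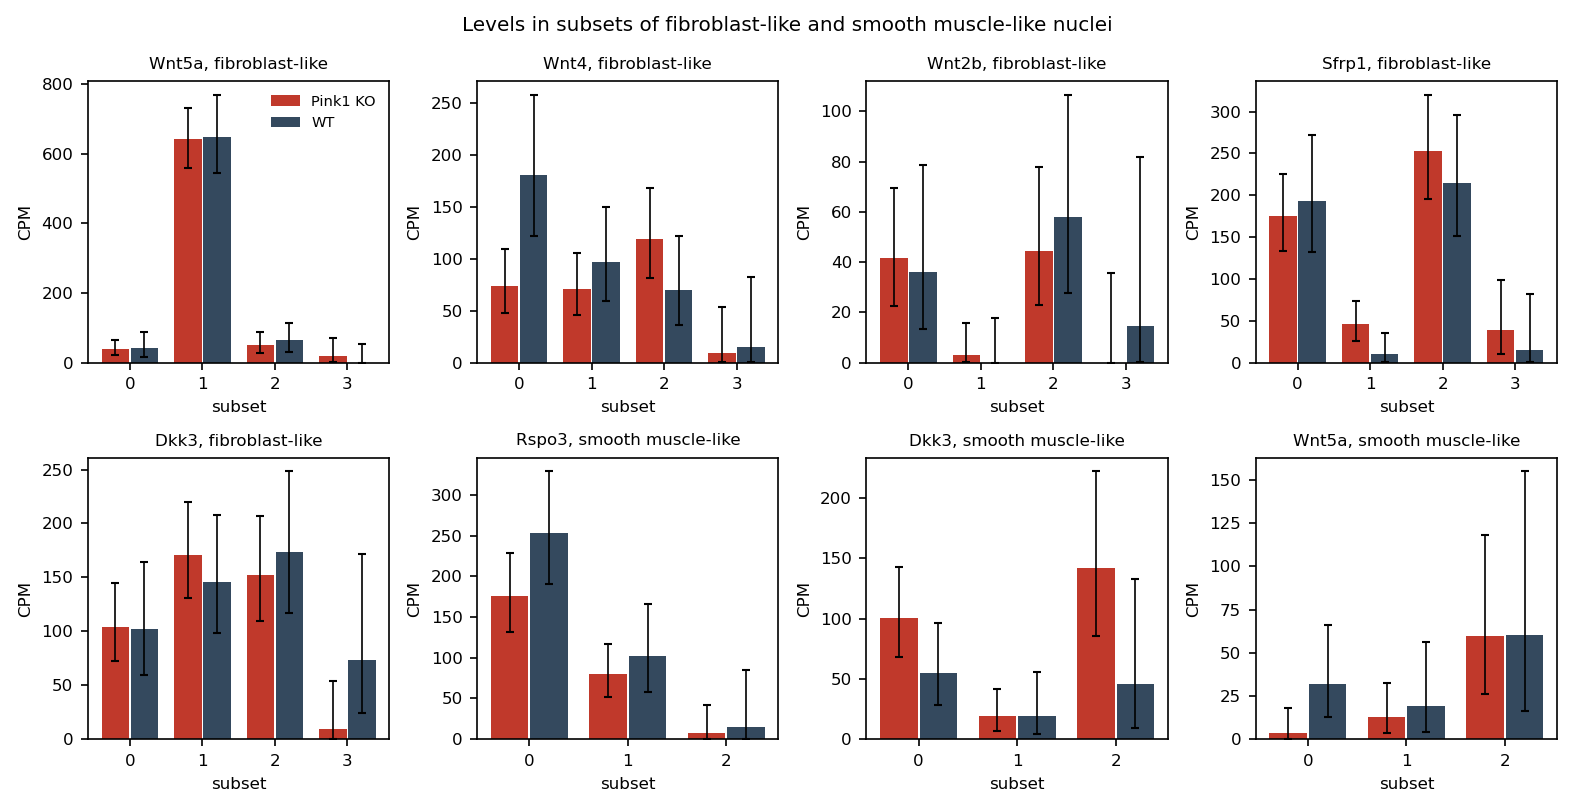
Level (CPM, bars; lines are exact 95% Poisson intervals) of 6 of the genes in subsets of fibroblast-like and smooth muscle-like nuclei, Pink1 KO in red and WT in grey. Wnt5a stands apart in fibroblast subset 1 at 642 CPM in KO and 650 CPM in WT, and Rspo3 is highest in smooth muscle subset 0 at 175 CPM in KO and 253 CPM in WT.

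Wnt4, another ligand of mostly β-catenin-independent action, had UMIs in stroma and epithelium but stood highest in fibroblast-like nuclei. It lies on chromosome 4, 137277489 to 137299726, plus strand, 1013680 bases from Pink1, and Rspo1 also lies on chromosome 4. Fibroblast-like nuclei held 83 of 157 UMIs in KO, 52.9%, and 63 of 126 in WT, 50%, at 78.2 CPM (62.3 to 97.0) in KO and 103 CPM (79.0 to 132) in WT. The fibroblast interval did not overlap that of the next class, enteroendocrine-like, in either library (24.3 CPM in KO and 9.18 CPM in WT). The KO over WT ratio in fibroblast-like nuclei was 0.761 (0.542 to 1.07), short of the fold under the main setting and all 11 alternatives.

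The Wnt4 ratio was taken within each fibroblast subset. Subset 0, led by Iigp1, Adamtsl2, Ces1d and Cp, had 25 UMIs (74.1 CPM) in 284 KO nuclei and 30 UMIs (181 CPM) in 127 WT nuclei, a ratio of 0.410 (0.231 to 0.722). Subset 2, led by Stmn2, Osr1, Cd248 and Mgp, had 32 UMIs (119 CPM) in 142 KO nuclei and 12 UMIs (69.6 CPM) in 89 WT nuclei, a ratio of 1.71 (0.856 to 3.64). Both subsets lie mainly in cluster 12, whose ratio as a whole was 0.847 (0.531 to 1.37). Subset 1 had a ratio of 0.735 (0.392 to 1.40). The subsets of lowest and highest ratio were picked out after their values were seen, and the difference between them was not tested. The subsets themselves depend on the sub-clustering: the level of Wnt4 in its highest subset, 109 CPM over both libraries, was 173 CPM at sub-clustering resolution 1.

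Outside the stroma, Wnt4 had 15 UMIs (5.30 CPM) in colonocyte-like nuclei of KO and 20 UMIs (10.2 CPM) in those of WT, a ratio of 0.520 (0.248 to 1.07). It was past the fold and lower under all 11 alternatives, and the interval spans 1. In that class 13.4% of all genes were past the fold and lower and 7.31% higher. Colonocyte-like cluster 2 went that way, with 5 UMIs (2.46 CPM) of Wnt4 in KO and 13 UMIs (12.5 CPM) in WT. Cluster 8 went the other way, with 10 UMIs (12.6 CPM) in KO and 7 UMIs (7.59 CPM) in WT. In enteroendocrine-like cluster 24, led by Chgb, Tph1 and Chga, Wnt4 had 7 UMIs (40.7 CPM) in KO and 1 UMI (7.72 CPM) in WT, where the fibroblast markers stood at 0.369% in KO and 0.434% in WT of their fibroblast level. Goblet-like nuclei had 13 UMIs (5.89 CPM) in KO and 3 UMIs (1.51 CPM) in WT, and none of the 9 genes reached 20 UMIs there (6.59% of the genes measured in goblet-like nuclei were past the fold and higher and 12.5% lower).

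Wnt2b, a ligand of the canonical branch that can sustain intestinal stem cells, had 55 UMIs in KO and 47 in WT. Fibroblast-like nuclei held 27 of them (25.5 CPM) in KO and 17 (27.7 CPM) in WT, a ratio of 0.918 (0.482 to 1.79). Smooth muscle-like nuclei followed with 9 UMIs (11.9 CPM) in KO and 11 UMIs (25.0 CPM) in WT, and their intervals overlapped those of fibroblast-like nuclei in both libraries. Among fibroblasts the gene was nearly confined to subsets 0 and 2, with 14 and 12 UMIs in KO and 6 and 10 in WT, against 1 UMI in KO and 0 in WT in the Wnt5a-high subset 1 and 0 in KO and 1 in WT in subset 3. In smooth muscle 8 of 9 UMIs in KO and 10 of 11 in WT were in subset 0, where Rspo3 was also highest. The smooth muscle ratio of 0.477 (0.175 to 1.27) was past the fold and lower, with an interval that spans 1.

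Wnt5b, closely related to Wnt5a, was rarer, with 15 UMIs in KO and 16 in WT. Fibroblast-like nuclei held 14 of them (13.2 CPM) in KO and 12 (19.6 CPM) in WT, each in a different nucleus, and the ratio was 0.674 (0.289 to 1.60). By subset it had 4 UMIs (11.4 CPM) in KO and 5 UMIs (24.2 CPM) in WT in subset 1, 6 UMIs (17.8 CPM) in KO and 3 UMIs (18.1 CPM) in WT in subset 0, and 4 UMIs in each library in subset 2 (14.9 CPM in KO and 23.2 CPM in WT), with intervals that overlap. Wnt5a was detected in 4 of 14 KO nuclei and 7 of 12 WT nuclei with a Wnt5b UMI, and in 16.1% of KO and 18.3% of WT fibroblast nuclei without one. The gene overlaps Fbxl14 on the other strand, and the sources used here do not say whether reads were counted by strand. The same limit holds for Rspo1, Rspo3 and Wnt5a, each of which overlaps a gene on the other strand, and Rspo3 and Wnt2b also overlap a gene on their own strand.

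**Figure D3:**
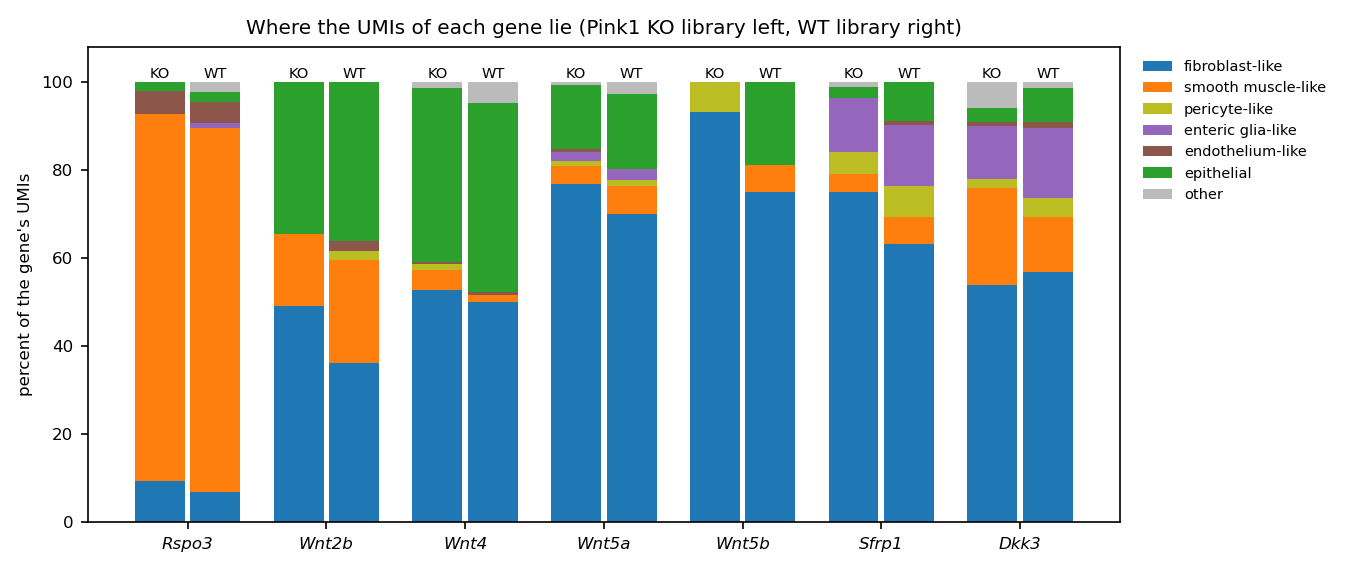
Percent of each gene's UMIs (vertical axis) by class of nuclei (colours), with the Pink1 KO library left and the WT library right for each of 7 genes. Rspo3 is mostly in smooth muscle-like nuclei (83.3% in KO, 82.8% in WT), Wnt5a mostly in fibroblast-like nuclei (77% in KO, 70.0% in WT), and Sfrp1 and Dkk3 reach into enteric glia-like nuclei.

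Sfrp1, a secreted Frizzled-related protein that binds Wnt ligands, had overlapping levels in fibroblast-like, enteric glia-like and pericyte-like nuclei. It lies on chromosome 8, 23411502 to 23449632, plus strand. Fibroblast-like nuclei had 147 UMIs (139 CPM, 117 to 163) in KO and 72 UMIs (117 CPM, 91.9 to 148) in WT, a ratio of 1.18 (0.884 to 1.59). Enteric glia-like nuclei had 24 UMIs (137 CPM) in KO and 16 UMIs (111 CPM) in WT, and pericyte-like nuclei had 10 UMIs (86.1 CPM) in KO and 8 UMIs (98.0 CPM) in WT. The intervals of these 3 classes overlapped, and that of pericyte-like nuclei lay above that of smooth muscle-like nuclei in both libraries. In the glia-like nuclei fibroblast markers stood at 5.67% in KO and 4.87% in WT of their fibroblast level, whereas Sfrp1 stood at 98.5% in KO and 94.4% in WT. In the pericyte-like nuclei the fibroblast markers were much higher, at 45.8% in KO and 37.0% in WT, and their part in the pericyte value was not tested. The 6 pericyte markers summed there to 2188 CPM in KO and 1090 CPM in WT, so the make-up of this class differed between the libraries.

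Among fibroblast subsets Sfrp1 was low in the Wnt5a-high subset. Subset 2 had 252 CPM (196 to 320) in KO and 214 CPM (151 to 296) in WT, and subset 0 had 175 CPM in KO and 193 CPM in WT. The Wnt5a-high subset 1 had 16 UMIs (45.6 CPM, 26.1 to 74.1) in KO and 2 UMIs (9.70 CPM, 1.17 to 35.0) in WT. Subset 3, led by Ebf1, Pi16 and Ackr4, was low in both genes, with 38.7 CPM of Sfrp1 in KO and 14.7 CPM in WT, and 2 UMIs of Wnt5a in KO and 0 in WT. In fibroblast nuclei with a Wnt5a UMI, Sfrp1 was detected in 13.0% in KO and 7.79% in WT, and in those without one in 14.8% in KO and 12.3% in WT. In cluster 16, which holds nearly all of subset 1, Sfrp1 had 16 UMIs in KO and 4 in WT, a ratio of 2.53 with a lower bound of 0.816.

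Dkk3, a divergent member of the Dickkopf family of secreted proteins, had the widest stromal range. It lies on chromosome 7, 112116017 to 112159057, minus strand. Enteric glia-like nuclei had 31 UMIs (176 CPM, 120 to 250) in KO and 23 UMIs (159 CPM, 101 to 239) in WT. Fibroblast-like nuclei had 137 UMIs (129 CPM, 108 to 153) in KO and 82 UMIs (134 CPM, 106 to 166) in WT, a ratio of 0.965 (0.729 to 1.28). The glia and fibroblast intervals overlapped. The fibroblast intervals did not overlap those of smooth muscle-like nuclei in either library. Subsets 0, 1 and 2 of the fibroblasts had 104, 171 and 152 CPM in KO and 102, 145 and 174 CPM in WT, a narrower spread than for Wnt5a or Sfrp1, while subset 3 had 1 UMI in KO and 5 in WT.

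In smooth muscle-like nuclei Dkk3 was higher in KO than in WT, with 56 UMIs (74.1 CPM, 56.0 to 96.3) in KO and 18 UMIs (40.9 CPM, 24.2 to 64.6) in WT, a ratio of 1.81 (1.05 to 3.28). It was detected in 9.11% of these nuclei in KO and 6.14% in WT, beside 1 UMI in goblet-like nuclei of each library. The call rested on the handling of nuclei: the ratio was 1.28 with predicted doublets kept and 1.05 after thinning to 500 UMIs per nucleus. In the larger cluster 11 alone it was 1.45 (0.774 to 2.85), short of the fold, and in cluster 19 it was 3.27 (0.969 to 17.2) from 20 UMIs in KO and 3 in WT. Fibroblast markers stood in cluster 19 at 33.6% in KO and 37.0% in WT of their fibroblast level, and in cluster 11 at 14.9% in KO and 17.7% in WT; their part in the ratios was not tested. Subset 2 had 19 UMIs (142 CPM) in KO and 3 UMIs (45.4 CPM) in WT, subset 0 had 31 UMIs (101 CPM) in KO and 12 UMIs (55.2 CPM) in WT, and subset 1 had 19.1 CPM in KO and 19.2 CPM in WT. Fibroblast markers in smooth muscle-like nuclei summed to 2031 CPM in KO and 2217 CPM in WT. Macrophage and dendritic-like nuclei had 7 UMIs of Dkk3 in KO and 0 in WT.

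Of the 4 Wnt-related genes measured in smooth muscle-like nuclei, Dkk3 was past the fold and higher, and Rspo3, Wnt2b and Wnt5a were past it and lower. Over all 7328 genes measured there, 13.9% were past the fold and higher and 10.8% past it and lower. Wnt2b, with 9 UMIs in KO and 11 in WT, only just reached the 20 UMIs needed. Wnt5a had 13 UMIs (17.2 CPM) in KO and 14 UMIs (31.8 CPM) in WT, a ratio of 0.541 (0.234 to 1.24). Only the intervals of Rspo3 and Dkk3 leave out 1. Within single subsets, on fewer UMIs, the intervals of both genes span 1. For Rspo3 they were 0.468 to 1.03 in subset 0 and 0.400 to 1.56 in subset 1. For Dkk3 they were 0.912 to 3.90 in subset 0 and 0.922 to 16.5 in subset 2. In cluster 11 the Rspo3 interval, 0.482 to 0.940, leaves out 1. The 18 measured immediate early genes were past the fold and higher in 17 cases in the same nuclei, with a sum of 7168 CPM in KO and 793 CPM in WT; their part in these ratios was not tested.

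**Figure D4:**
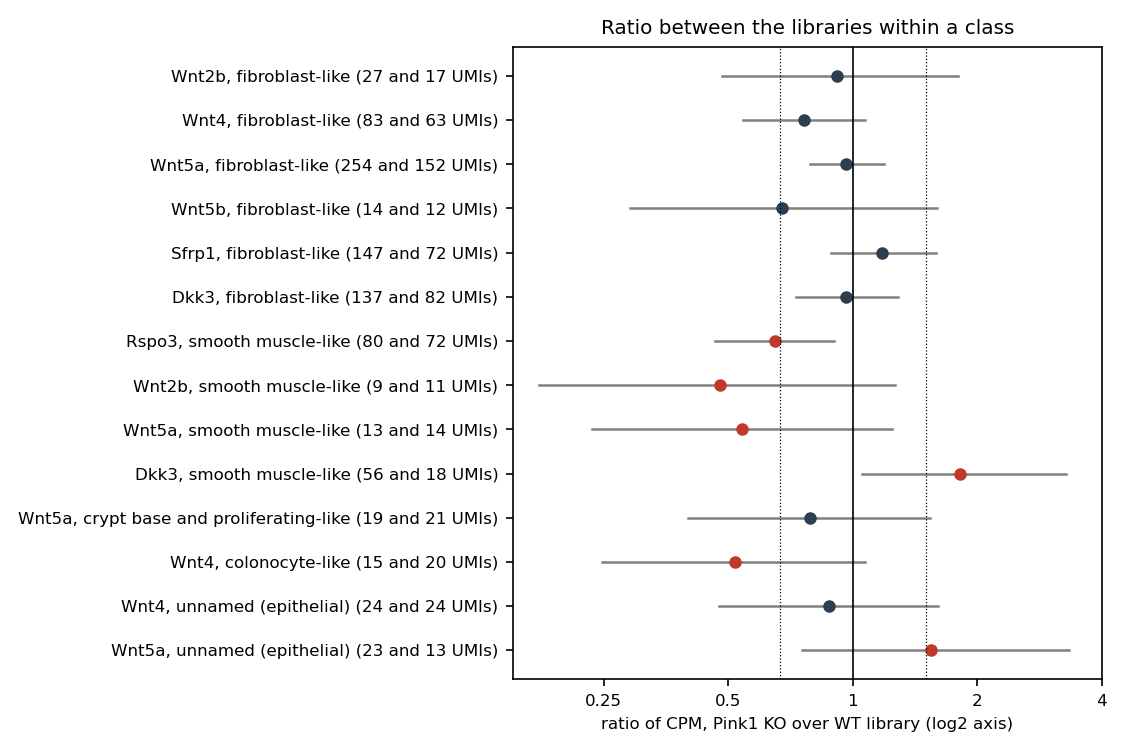
Ratio of CPM, Pink1 KO over WT, with its exact 95% interval for counting error, for every gene and class with at least 20 UMIs and at least 100 nuclei per library (log2 axis; dotted lines mark 1.5-fold; red points lie past it). The 6 fibroblast ratios run from 0.674 (Wnt5b) to 1.18 (Sfrp1), and the smooth muscle ratios from 0.477 (Wnt2b) to 1.81 (Dkk3).

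Over all nuclei of a library, Wnt5a, Sfrp1 and Dkk3 were higher in KO, with ratios of 1.24, 1.40 and 1.43, all short of the fold. In fibroblast-like nuclei their ratios were 0.965, 1.18 and 0.965. In smooth muscle-like nuclei Dkk3 was past the fold and higher (1.81) and Wnt5a past it and lower (0.541). Fibroblast-like nuclei gave 5.72% of all UMIs in KO and 4.06% in WT, and smooth muscle-like nuclei gave 4.08% in KO and 2.92% in WT. Giving each class its WT level and the share of UMIs it had in KO yielded ratios of 1.31 for Wnt5a, 1.29 for Sfrp1 and 1.29 for Dkk3. Giving each class its KO level and its WT share yielded 0.964, 1.07 and 1.12 for the same genes. For Rspo3 the measured ratio over all nuclei was 0.897, against 1.36 from the class shares alone and 0.659 from the levels alone. One pool of nuclei per genotype does not show whether the class shares differ between mice of the 2 genotypes.

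**Figure D5:**
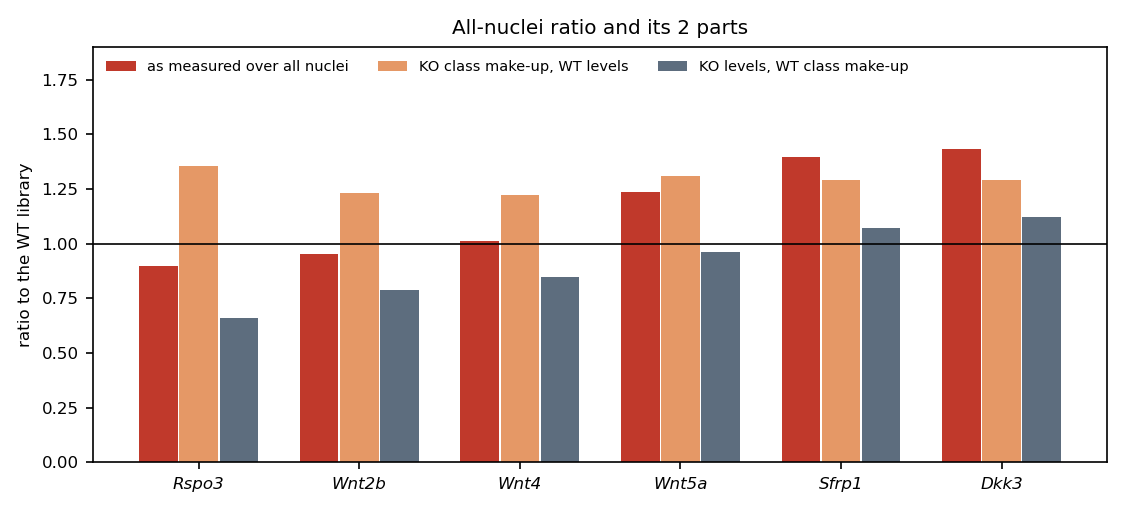
Ratio to the WT library (vertical axis) of 6 genes as measured over all nuclei, with KO shares of classes and WT levels, and with KO levels and WT shares of classes. Wnt5a, Sfrp1 and Dkk3 stand at 1.24, 1.40 and 1.43 as measured and at 0.964, 1.07 and 1.12 with the WT shares.

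Single nuclei seldom held several of these transcripts at this depth. No transcript of the 9 genes was detected in 56.7% of fibroblast-like nuclei in KO and 50.4% in WT, in 75.0% of smooth muscle-like nuclei in KO and 71.7% in WT, and in 98.2% of goblet-like nuclei in KO and 99.2% in WT. At least 3 of the genes were found in 2.93% of fibroblast-like nuclei in KO and 3.54% in WT. Wnt4 was detected in 13.8% of KO and 20.8% of WT fibroblast nuclei with a Wnt5a UMI, and in 7.48% of KO and 10.1% of WT fibroblast nuclei without one. Dkk3 was detected in 24.4% of KO and 26% of WT nuclei with a Wnt5a UMI, and in 12.1% of KO and 16.4% of WT nuclei without one. Deeper nuclei have more chance of both detections, and these shares are not corrected for depth.

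The genes whose levels over the 30 clusters were most like each of these genes differed by gene. Pearson correlations of log2(CPM + 5) were taken over both libraries together, among 11972 genes, and are a description of points that share libraries and depth. Rspo3 was most like Flnc (0.835), which encodes an actin cross-linking protein of muscle. Wnt5a was most like Tenm3 (0.872) and Foxf2 (0.856), a transcription factor of gut mesenchyme. Wnt2b was most like Fgf10 (0.846), a mesenchymal growth factor, and Fzd1 (0.754), a Wnt receptor. Wnt4 was most like Col6a5 (0.818), Sfrp1 like C4b (0.938) and Dkk3 like Col5a2 (0.943). Wnt5b was most like Ptgs2 (0.920), but on only 31 UMIs over all clusters, against 310 for Sfrp1 and 398 for Dkk3. Among the 9 genes, Dkk3 correlated with Sfrp1 at 0.852 and with Wnt5a at 0.811.

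Other Wnt ligands were scarce in the stroma. None of the 16 other ligand and R-spondin genes reached 20 UMIs in fibroblast-like nuclei, and in smooth muscle-like nuclei Wnt16 alone did, with 19.9 CPM in KO and 18.2 CPM in WT. Outside it Wnt8b had 33 UMIs in all KO nuclei and 53 in all WT nuclei, of which 15 (2.15 CPM) in KO and 37 (6.06 CPM) in WT lay in the unnamed epithelial clusters, a ratio of 0.355 (0.181 to 0.662). In these clusters 8.53% of 12949 genes were past the fold and lower and 5.51% higher. Below 20 UMIs, Wnt8b had 2.12 CPM in KO and 6.12 CPM in WT in colonocyte-like nuclei. In crypt base and proliferating-like nuclei, also below 20 UMIs, it had 2.92 CPM in KO and 1.49 CPM in WT. Wls, which carries Wnt proteins to the cell surface, had 284 CPM in KO and 259 CPM in WT in fibroblast-like nuclei, a ratio of 1.09 (0.899 to 1.33).

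Of 11 receptor and co-receptor genes measured in fibroblast-like nuclei, 1 was past the fold and higher, 2 were past it and lower and 8 were within it, beside 11.4% of all genes past the fold and higher and 10.7% lower, so these counts are near the background. The median log2 ratio of the 11 was -0.36, beside -0.02 over all genes. Fzd1 was higher, with 100 UMIs (94.3 CPM) in KO and 34 UMIs (55.5 CPM) in WT, a ratio of 1.70 (1.14 to 2.59). Fzd2 was lower, with 18 UMIs (17.0 CPM) in KO and 24 UMIs (39.2 CPM) in WT, a ratio of 0.433 (0.222 to 0.833), and Fzd7 was lower at 0.514 (0.284 to 0.924). The co-receptor Lrp6 had the most UMIs of the list and a ratio of 1.02 (0.801 to 1.31). In smooth muscle-like nuclei 3 of 9 measured receptor genes were past the fold and lower and 0 higher (10.8% lower and 13.9% higher over all genes), and Fzd8 had the lowest ratio, with 6 UMIs in KO and 17 in WT (0.206, 0.0664 to 0.547).

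The core of the canonical pathway, from β-catenin and its degradation complex to the TCF factors, had 16 genes measured in fibroblast-like nuclei, of which 0 were past the fold and higher and 3 past it and lower, beside the same 11.4% higher and 10.7% lower of all genes. The lowest was Axin2, a feedback gene of Wnt signalling, with 9 UMIs in KO and 12 in WT (0.433, 0.161 to 1.12), and the highest was Tcf7l2 at 1.39 (1.09 to 1.78). The noncanonical and planar polarity list had 1 gene past the fold and higher, Nfatc1 with 18 UMIs in KO and 5 in WT, and 1 past it and lower of 11 measured. Of 3 other extracellular inhibitors measured there, 1 was past the fold and higher, Apcdd1, with 20 UMIs in KO and 7 in WT.

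In crypt base and proliferating-like nuclei the 4 measured R-spondin receptor and ligase genes were all within the fold. These nuclei carry receptors of these signals, but not alone: Lgr4 stood at 148 CPM in KO and 200 CPM in WT in colonocyte-like nuclei. Znrf3 was highest in plasma-like nuclei in both libraries (270 CPM in KO and 141 CPM in WT). Lgr5 was highest in tuft-like nuclei in KO and in crypt base and proliferating-like nuclei in WT. The plasma-like and tuft-like classes each held fewer than 100 nuclei per library. Rnf43 was highest in crypt base and proliferating-like nuclei in both libraries. Lgr5 and Axin2 are also among the markers that named the crypt base and proliferating-like class. Lgr5, the R-spondin receptor that marks crypt base stem cells, had 419 UMIs (136 CPM) in KO and 357 UMIs (133 CPM) in WT, a ratio of 1.02 (0.883 to 1.18). Rnf43 had a ratio of 1.09 (0.982 to 1.21), Znrf3 1.10 (0.885 to 1.38) and Lgr4 0.915 (0.811 to 1.03). Axin2 had 289 UMIs (93.8 CPM) in KO and 300 UMIs (112 CPM) in WT, a ratio of 0.837 (0.710 to 0.987), within the fold. Of 13 receptor and co-receptor genes 1 was past the fold and lower, Fzd4 at 0.571 (0.322 to 0.994), and of 15 canonical core genes 1 was past it and higher, Bcl9l, a co-activator of β-catenin, at 1.66 (1.25 to 2.21), beside 5.6% higher and 7.27% lower of all genes. Kremen2, a receptor for Dickkopf proteins, had 34 UMIs in KO and 12 in WT, a ratio of 2.46 (1.24 to 5.22).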

How the data were processed

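Nuclei were isolated, sorted and pooled, and single-nucleus libraries were made and sequenced, by the authors. Per the submitters' processing notes, reads were processed with Cell Ranger against GRCm38. The deposited files hold UMI counts per gene and barcode (22446326 in KO and 16997995 in WT), with no replicates; feature and barcode lists are labels. Here nuclei with at least 500 UMIs, 300 genes and at most 10% mitochondrial UMIs were kept. The highest Scrublet scores, at 0.8% per 1000 nuclei, were removed as doublets (1180 in KO and 632 in WT). Nuclei were clustered in scanpy 1.11.5 with leidenalg 0.10.2 (2000 variable genes, 30 components, 20 neighbours, resolution 1) and named from marker lists. Fibroblast and smooth muscle nuclei were clustered again without immediate early genes (resolution 0.5). CPM used nuclear-encoded UMIs. Intervals are exact Poisson for levels, Clopper-Pearson for shares and conditional binomial for ratios, all at 95%, and cover counting error only. A level of 0 was bounded by its Poisson interval. The goblet-like shares of 0 were instead bounded at 3 counts, which is a little lower than the Clopper-Pearson bound. The ratio calculation was tested on simulated data. Genes were placed with GENCODE M21, where 32235 of 32285 gene IDs matched, and promoters came from RefSeq on GRCm38.p6; a promoter window was available for 4 of the 9 genes. Genes were named mainly by a rule: the 9 genes, the 3 most alike in pattern to each, and genes from each pathway list. From a list the rule takes the 3 with the most UMIs and the highest and lowest ratios. Not every gene that the rule gives is named above. The genes and lists were chosen with earlier results of these data known.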

Additional observations from a re-analysis of the deposited data

How the results depend on the processing

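With 1 library per genotype, no statement on genotype can be separated from library or batch, and depth leaves Rspo1, Rspo2 and Wnt5b near the floor. No ratio past the fold changed direction. Within the fold, thinning to 500 UMIs turned Wnt5a in crypt base and proliferating-like nuclei, 0.786, to 2.43 (range 0.672 to 2.43) and Wnt4 in the unnamed clusters, 0.875, to 1.68 (range 0.824 to 1.68; also 1.02 at resolution 2), on 9 UMIs in KO and 3 in WT and on 6 in KO and 3 in WT. The number of the 9 genes past 1.5-fold in fibroblast-like nuclei was 0, but 1 with a looser filter on nuclei (Wnt5b, 0.658) and 2 after thinning to 500 UMIs (Wnt2b 0.526 and Wnt5b 0.439); thinning leaves 7 Wnt2b UMIs in each library. Over 11 alternatives the fibroblast ratio ranged from 0.805 to 1.09 for Wnt5a, from 0.752 to 0.885 for Wnt4, from 1.15 to 1.25 for Sfrp1 and from 0.789 to 1.02 for Dkk3. In smooth muscle-like nuclei Rspo3 ranged from 0.556 to 0.716, past the fold under 10 of 11, and Dkk3 from 1.05 to 2.11, past it under 9 of 11. Over 10 alternatives smooth muscle-like nuclei held 73.1% to 92.7% of the Rspo3 UMIs in KO and 76% to 91.1% in WT. Fibroblast-like nuclei held 75.7% to 84.8% of the Wnt5a UMIs in KO and 67.6% to 77.2% in WT. Wnt5a in its highest fibroblast subset was 645 CPM over both libraries, 801 CPM at sub-clustering resolution 1 and 804 CPM with immediate early genes allowed; the same levels were 109, 173 and 120 CPM for Wnt4 and 18.1, 47.2 and 25.7 CPM for Wnt5b. The smooth muscle sub-clustering and the split of ratios into class shares and levels were added after seeing the data. No paired analysis was possible because each genotype has 1 library.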
